A study of Macaca mulatta with 12 samples.

Results

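The respiratory chain of the inner mitochondrial membrane was followed through the transcripts of its subunits in blood macrophages of the rhesus macaque (Macaca mulatta). Members were the rows of the gene count table whose symbol begins like those of subunits of NADH dehydrogenase (NDUFA, NDUFB, NDUFC, NDUFS, NDUFV), succinate dehydrogenase (SDHA to SDHD), the cytochrome bc1 complex (UQCR), cytochrome c oxidase (COX4 to COX8) or ATP synthase (ATP5), or which are protein genes of the mitochondrial genome (MT-). By that rule 57 of 32386 rows were members, 49 nuclear encoded and 8 mitochondrially encoded. Complex I had 25 members, complex II 4, complex III 5, complex IV 11 and complex V 12. NDUFA4 and NDUFA4L2 were counted with complex IV, where the NDUFA4 protein sits. CYC1, the cytochrome c1 subunit of complex III, lies outside the rule and is given with the pathway genes. The rule also takes in ATP5IF1, an inhibitor of ATP synthase and not a subunit.

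The chain passes electrons from NADH (complex I) and succinate (complex II) through ubiquinone, complex III and cytochrome c to oxygen at complex IV, and the proton gradient built on the way drives ATP synthesis at complex V. Complexes I, III, IV and V are assembled from proteins of both genomes, so transcription in the nucleus and in the mitochondrion both feed them, while complex II is wholly nuclear encoded. In macrophages, stimulation with lipopolysaccharide (LPS) and interferon-gamma is known to shift energy metabolism towards glycolysis.

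Every group carries the same background: the donors of the cells had been transplanted with their own mobilized CD34+ cells, edited beforehand by CRISPR/Cas9, as a model of what the series title calls TET2-mutant hematopoiesis. CD14+CD16-CD163+ cells were sorted 4.5 months (early) or 19 months (late) after transplant and kept for 8 h at 250000 cells per well, either unstimulated (CTL) or with LPS at 100 ng/ml and interferon-gamma at 20 ng/ml (ACT). Only LPS appears in the treatment label, whereas the protocol lists both agents. Each of the 4 groups, Early CTL, Early ACT, Late CTL and Late ACT, had 3 libraries, and the labels leave unsaid whether these are animals or wells. P-values therefore measure only the spread between libraries, possibly a technical one. Dates of library making and sequencing are not in the labels, and whatever else differed between the early and late libraries cannot be told apart from time.

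Library totals ran from 3910680 to 12972505 counts. Levels are given as CPM, each gene's count scaled to a common library total after correction by the library's TMM factor, a normalisation that assumes most genes are unchanged. Early ACT 1 stood apart from both other libraries of its group, with a chi-square per degree of freedom of 28.4 and 29.3 against them, where those libraries gave 2.82 between themselves. Late CTL 3 stood apart less, at 10.5 and 10.8. Of the markers of the labelled cell type, CD14, LYZ and CD163 had mean levels of 2169, 5298 and 1197 CPM in Early CTL, while the T cell markers CD3E, CD3G, CD8A and CD8B had group means between 0 and 0.264 CPM. The 8 T cell markers with a row summed to 257 to 394 CPM over all libraries, most of it IL7R, with group means of 263 to 323 CPM, and none of the 3 tested passed for late against early. The summed level of 10 macrophage and CD14 monocyte markers was itself lower late, at 11788 to 12395 CPM in Early CTL, 11149 to 11458 in Early ACT, 6579 to 7128 in Late CTL and 6145 to 6378 in Late ACT. In each late against early comparison 9 of these 10 markers fell, beside 19.8% of all genes without and 19.7% with stimulation. Without stimulation 1 marker rose, and with it none did. Summed markers of neutrophils, dendritic cells, platelets and NK cells were lower late too. The T cell sum was higher late without stimulation, at 328 to 363 CPM against 270 to 297. With stimulation it overlapped, at 318 to 343 CPM late and 257 to 394 early. Erythroid markers were at most 0.0931 CPM early and 1.26 to 3.04 late without stimulation. With it they were at most 0.171 CPM early and 0.391 to 2.49 late. B cell and CD16 monocyte sums overlapped between early and late. Neutrophil markers went from 652 to 680 CPM in Early CTL to 360 to 418 in Late CTL. With stimulation they went from 683 to 762 in Early ACT to 327 to 401 in Late ACT, mostly through CSF3R and CAMP. Of 6 tested, 2 fell and 2 rose without stimulation, beside 19.8% and 20.9% of all genes. With stimulation 2 fell and none rose, beside 19.7% and 19.1% of all genes. The tested markers therefore did not all follow their sum. Dendritic cell markers went from 239 to 281 CPM to 176 to 200 without stimulation and from 243 to 345 to 184 to 191 with it. Platelet markers, mostly TUBB1, went from 432 to 484 CPM to 332 to 397 and from 425 to 576 to 335 to 348. NK cell markers went from 59.3 to 59.6 CPM to 43.4 to 52.5 and from 51.4 to 75.3 to 42.7 to 48.5. The part of any of these markers in the results on the chain was not tested. In bulk libraries, fewer cells of a type and less RNA per cell cannot be told apart.

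Between the early and the late libraries the summed nuclear encoded members were lower and the summed mitochondrially encoded members higher. Summed over the 49 nuclear encoded members, the level was 2806, 2831 and 3021 CPM in the Early CTL libraries and 2182, 2239 and 2637 in Late CTL. In the stimulated cells the sum was 3550, 2717 and 2740 CPM in Early ACT and 2309, 2268 and 2247 in Late ACT. All late libraries lay below all early libraries of the same treatment. The 8 mitochondrially encoded members summed to 3425, 3594 and 4191 CPM in Early CTL, 5061, 4483 and 4516 in Early ACT, 5058, 5483 and 6156 in Late CTL, and 6098, 5832 and 5379 in Late ACT. Late libraries lay above early ones of the same treatment. The ratio of the mitochondrial to the nuclear sum was 1.29 ± 0.0857 in Early CTL, 1.57 ± 0.129 in Early ACT, 2.37 ± 0.0714 in Late CTL and 2.54 ± 0.128 in Late ACT (mean ± SD, n = 3 each). The lowest late ratio, 2.32, exceeded the highest early ratio, 1.65.

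**Figure D1:**
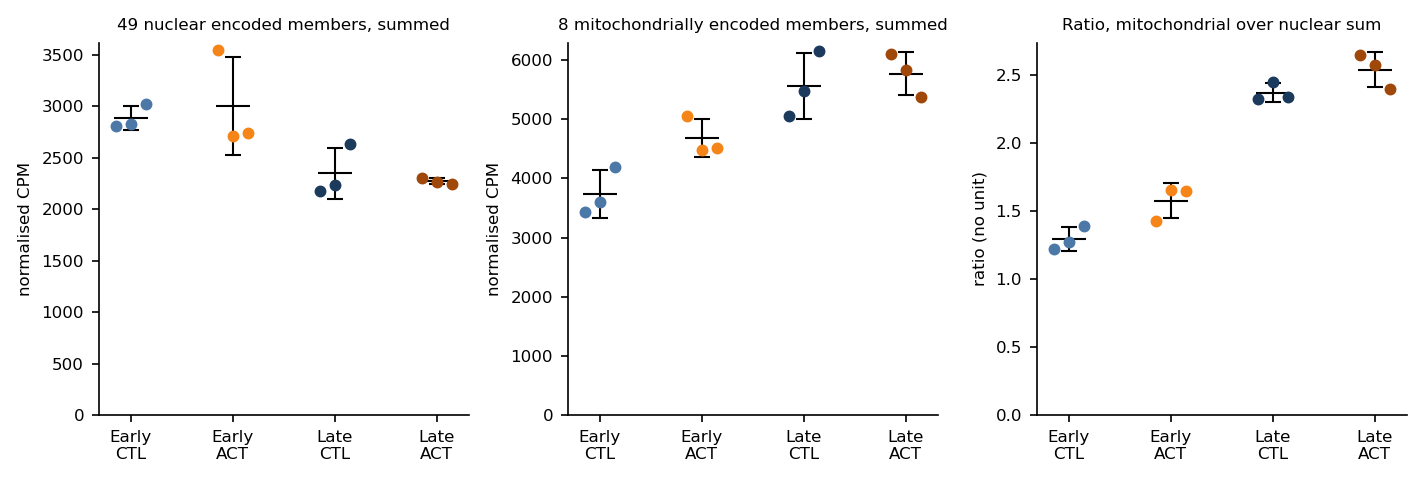
Summed normalised CPM of the nuclear encoded members (left), of the mitochondrially encoded members (middle) and the ratio of the mitochondrial to the nuclear sum (right), by group. Points are libraries, bars the mean ± SD of 3 libraries. Every late ratio (2.32 to 2.64) lies above every early ratio (1.22 to 1.65), and Early ACT 1 has the highest nuclear sum, 3550 CPM. The mitochondrially encoded rows were named through lists of late against early differences, so their sum and the ratio are a description.

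The 8 mitochondrially encoded rows carry a name only because the authors' deposited tables list them, and those tables hold genes with an adjusted p under 0.05 for late against early. Their late against early values, and the sum and ratio above that contain them, are therefore a description, with no test. The separation of late from early libraries in that sum and ratio is not independent of the listing. Of the 49 nuclear members, 47 were named by a name table and 2 by their row name, so none depends on those lists.

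Between 4.5 and 19 months, nuclear encoded subunits fell or did not pass the test, and none rose. Of 48 nuclear members tested, 17 fell in unstimulated cells (edgeR quasi-likelihood test, Benjamini-Hochberg adjusted over 11826 genes, threshold 0.05), which is 35.4%. Over all genes 19.8% fell and 20.9% rose in this comparison. The share that fell was 25.3% among genes with a mean of 4 to 100 CPM and 30.1% among those over 100 CPM, classes chosen after the files were seen. In stimulated cells 18 of 48 fell, or 37.5%, against 19.7% that fell and 19.1% that rose over all genes. There the share that fell was 23.4% at 4 to 100 CPM and 40.5% over 100 CPM, which is above the members' share. The median log2 fold change of the 48 was -0.33 in both comparisons, and that of all genes was 0.02 in unstimulated and 0.05 in stimulated cells. Negative values were found for 39 of 48 in unstimulated and 40 of 48 in stimulated cells, against 48.6% and 47.2% of all genes. In unstimulated cells 21 nuclear members had every late library below every early one, as did 26.1% of all genes, and 3 had every late library above, as did 3162 of the 11826 genes. In stimulated cells the counts were 25 below, against 24.5% of all genes, and 2 above, against 3071 of the 11826. Leaving out Late CTL 3 moved the unstimulated median to -0.52. With upper-quartile factors the median of all genes moved to 0.15 in both comparisons, that of the nuclear members to -0.20 and -0.22, and 12 and 14 of them fell. Higher calls then made up 63.3% and 61% of all calls, against 51.3% and 49.3% with TMM factors, and 64.4% and 58.4% with DESeq2. No member that passed changed sign under any of these scalings.

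The unstimulated and stimulated comparisons of time share no library. They come from the same fit with a pooled spread, and whatever else differed between early and late libraries could enter both, so they are not independent. Both found 14 nuclear members lower, which is 82.4% of those that fell in unstimulated cells and 77.8% of those that fell in stimulated cells. Over all genes the shares were 72.7% and 73.2%, and 14.4% of genes fell in both. Among them were NDUFV1, NDUFS7, NDUFS8, NDUFA11, NDUFB2, NDUFB8 and NDUFB9 of complex I, SDHA and SDHB of complex II, UQCRC1 and the row named UQCRH (described by the authors as another gene) of complex III, and COX5A and COX7A1 of complex IV. No subunit of ATP synthase was among them. NDUFA9, ATP5PD and ATP5F1C fell in unstimulated cells only by the threshold, and NDUFB1, COX4I1, COX7A2 and ATP5ME in stimulated cells only by the threshold. The test of the difference, the interaction, passed for no member, so none of these 7 is shown to differ between treatments.

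**Figure D2:**
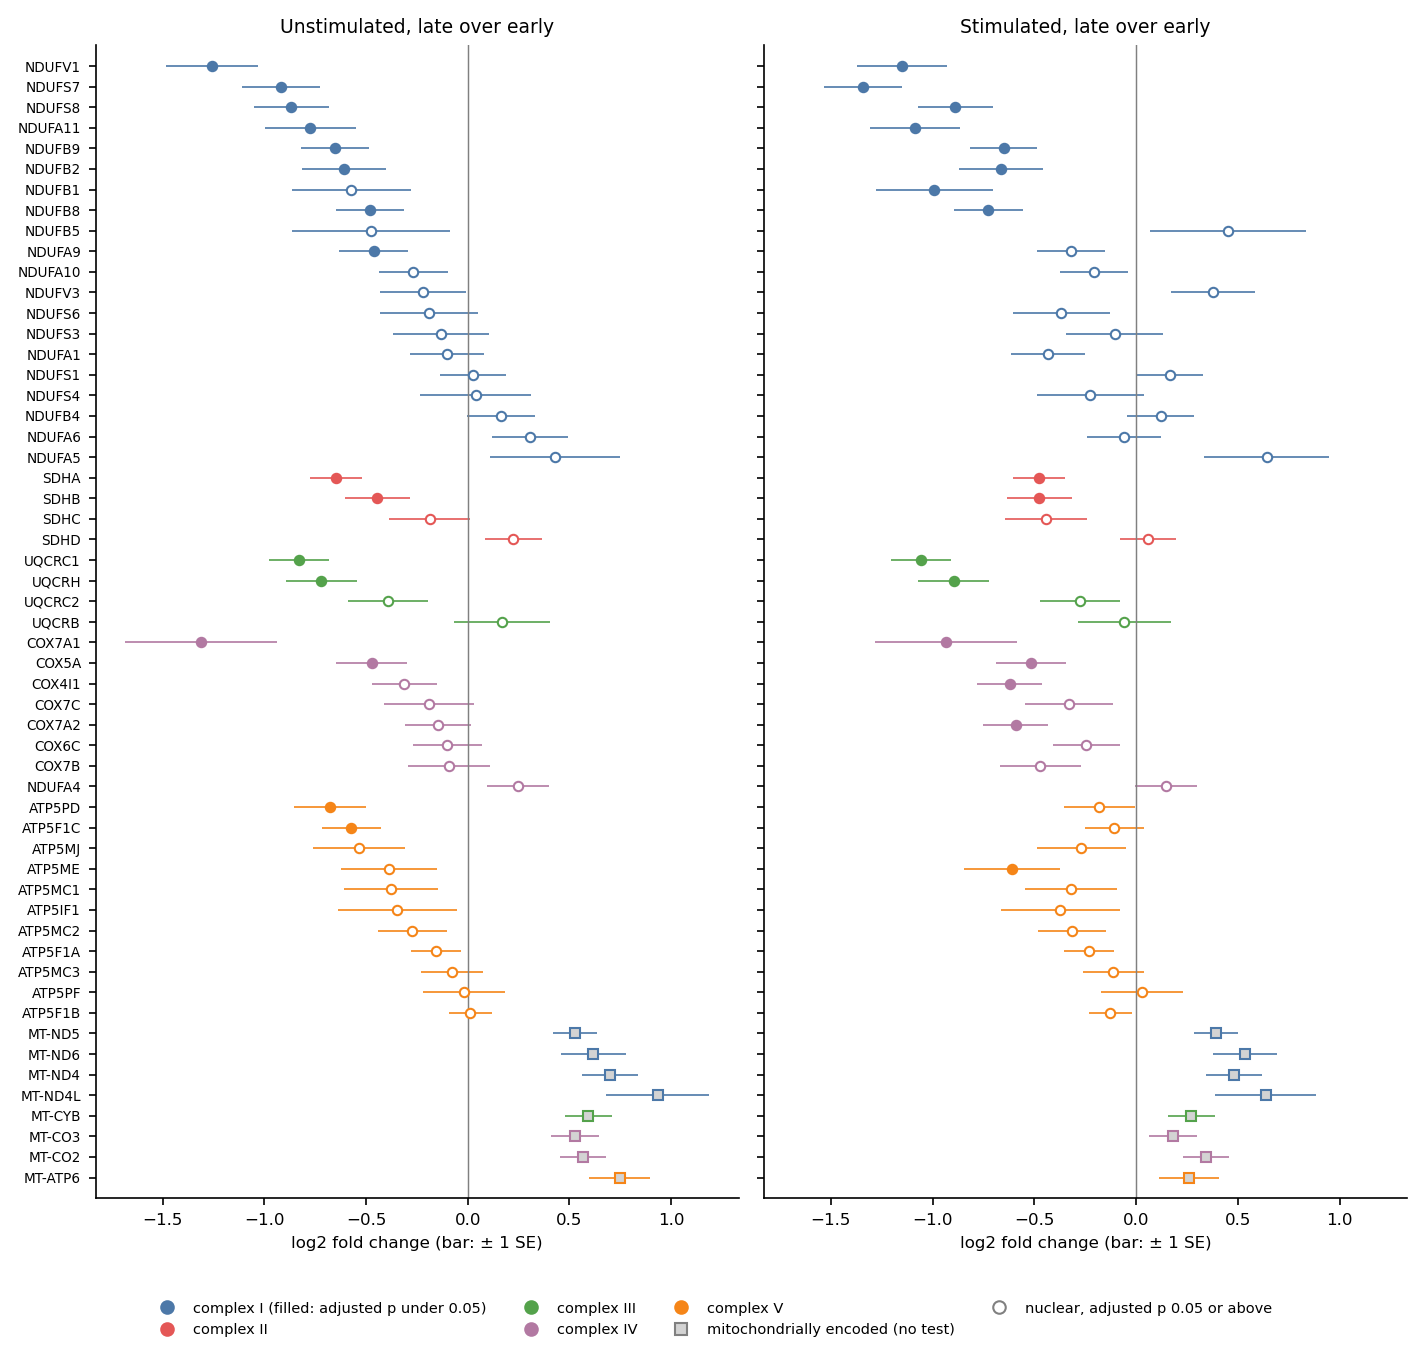
Log2 fold change of late over early with its standard error, for the tested members described here, in unstimulated (left) and stimulated cells (right). Circles are nuclear encoded and filled where the adjusted p is under 0.05, and grey squares are mitochondrially encoded, shown without a test. Filled circles all lie left of 0, and the squares all lie right of 0.

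Complex I carried the widest range. Its 21 nuclear members had a median log2 fold change of -0.46 in unstimulated and -0.37 in stimulated cells. In each comparison 9 fell, or 42.9%, against 19.8% and 19.7% of all genes.

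NDUFV1 binds the flavin that accepts electrons from NADH, and the authors' tables place it on chromosome 14 from 6759297 to 6768955 (the submitters' processing notes name build Mmul_8.0.1). Its level was 26, 31.6 and 33.2 CPM in Early CTL, 42.1, 23.3 and 27 in Early ACT, 8.58, 11.5 and 17.3 in Late CTL, and 12, 12.9 and 15.5 in Late ACT. Every late library was below every early library. Late against early, it fell by 1.25 on the log2 scale (SE 0.23, adjusted p = 9.95e-05, edgeR) without stimulation and by 1.15 (SE 0.22, adjusted p = 0.000241) with it.

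NDUFS7 and NDUFS8 hold iron-sulfur clusters on the path to ubiquinone. NDUFS7 (chromosome 19, 1179598 to 1191418) was at 33.2, 27.4 and 36.6 CPM in Early CTL, 44.8, 32 and 30.7 in Early ACT, 14.9, 15.2 and 20.9 in Late CTL, and 15, 11 and 15.7 in Late ACT. Neither treatment's groups overlapped, and the log2 fold changes were -0.92 (SE 0.19) and -1.34 (SE 0.19, adjusted p = 7.23e-06, edgeR). NDUFS8 (chromosome 14, 6605998 to 6612464) fell by 0.87 (SE 0.18) and 0.89 (SE 0.18) on the log2 scale.

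NDUFS1 and NDUFS3 did not pass. NDUFS1, the largest subunit, was at 29.5, 27 and 29.1 CPM in Early CTL and 31.8, 24.5 and 31.3 in Late CTL, with overlapping groups, and its log2 fold change was 0.03 (SE 0.16) without and 0.17 (SE 0.16) with stimulation. NDUFS3 gave -0.13 (SE 0.24) and -0.11 (SE 0.24). Subunits of the same complex therefore had values on both sides of 0 in unstimulated cells.

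Of the accessory subunits of complex I, NDUFA11 had the lowest log2 fold changes, -0.78 (SE 0.22) and -1.09 (SE 0.22, adjusted p = 0.000439, edgeR). Its level was 24.3, 20.8 and 20.4 CPM in Early CTL, 9.33, 11.9 and 16.2 in Late CTL, 35.9, 21.1 and 18.9 in Early ACT and 11.4, 12.4 and 10.9 in Late ACT. Early and late libraries did not overlap. NDUFB9 fell by 0.65 on the log2 scale in both comparisons, NDUFB2 by 0.61 and 0.66, and NDUFB8 by 0.48 and 0.73. NDUFB1 was at -0.57 (SE 0.29) and fell in stimulated cells by 0.99 (SE 0.29), and NDUFA9 fell in unstimulated cells by 0.46 and was at -0.32 in stimulated cells (SE 0.17 each). At the other end, NDUFA5 was at 0.43 (SE 0.32) and 0.64 (SE 0.31) and did not pass, and NDUFA6 was at 0.31 (SE 0.19) and -0.06 (SE 0.18). NDUFB5 was at -0.47 (SE 0.39) and 0.45 (SE 0.38). NDUFA5 and NDUFB5 were low, between 1.49 and 8.76 CPM in every library.

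Complex II feeds electrons from the TCA cycle. SDHA, its flavoprotein (chromosome 6, 191406 to 227380), was at 194, 205 and 198 CPM in Early CTL, 213, 148 and 161 in Early ACT, 122, 130 and 129 in Late CTL, and 111, 129 and 132 in Late ACT. No late library reached an early one, and SDHA fell by 0.65 (SE 0.13, adjusted p = 0.000267, edgeR) without and by 0.48 (SE 0.13, adjusted p = 0.0045) with stimulation on the log2 scale. SDHB, the iron-sulfur subunit, fell by 0.44 and 0.48 on the log2 scale (SE 0.16 each). The unstimulated fall of SDHB was lost in 6 of 19 alternatives, where its adjusted p reached 0.13 (range 0.00469 to 0.13). The membrane anchors did not pass: SDHC was at -0.19 (SE 0.20) and -0.44 (SE 0.20), and SDHD at 0.22 (SE 0.14) and 0.06 (SE 0.14).

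In complex III, UQCRC1, a core protein on the matrix side (chromosome 2, 93840753 to 93854737), was at 395, 380 and 410 CPM in Early CTL and 200, 213 and 253 in Late CTL. Stimulated libraries were at 559, 342 and 352 CPM early and 195, 187 and 218 late. The highest late library was below the lowest early one in both, and the log2 fold changes were -0.83 (SE 0.15, adjusted p = 8.87e-05, edgeR) and -1.06 (SE 0.15, adjusted p = 5.36e-06). The row that the name table calls UQCRH, the hinge protein by cytochrome c1, is described in the authors' deposited tables as fatty acid amide hydrolase, so which gene its counts belong to is uncertain. It fell by 0.72 and 0.90 (SE 0.17 each), from 31.3, 33.6 and 30.4 CPM in Early CTL to 20.2, 17.4 and 20.5 in Late CTL. Without this row 16 of 47 nuclear members fell in unstimulated and 17 in stimulated cells, 13 fell in both, and the nuclear medians were -0.31 and -0.32, an alternative chosen after seeing the data. Complex III then had 3 tested nuclear members with medians of -0.39 and -0.28, of which UQCRC1 fell in each. UQCRC2, the partner of UQCRC1, was at -0.39 (SE 0.20) and -0.28 (SE 0.20) and did not pass, nor did UQCRB, which was at 0.17 (SE 0.24) and -0.06 (SE 0.23).

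Complex IV reduces oxygen, and its nuclear subunits surround a mitochondrially encoded core. Of 8 nuclear members tested, 2 fell in unstimulated and 4 in stimulated cells, beside 19.8% and 19.7% of all genes. The unstimulated count of 2 is close to that background, and complex IV was not tested as a set. COX5A was at 28.3, 31.8 and 33.6 CPM in Early CTL, 17.9, 22.3 and 26.9 in Late CTL, 36.9, 28.1 and 33.5 in Early ACT and 18.4, 25.8 and 23.9 in Late ACT. Early and late groups did not overlap, with log2 fold changes of -0.47 and -0.52 (SE 0.17 each), and the unstimulated call was lost in 6 of 19 alternatives (adjusted p 0.00628 to 0.123). COX4I1, an early-assembling subunit and the ubiquitous isoform, was at 116, 113 and 118 CPM in Early CTL and 80.5, 83.1 and 116 in Late CTL, where Late CTL 3 reached the early range. In stimulated cells it was at 168, 103 and 112 CPM early and 88.6, 83.4 and 75 late, with no overlap. The log2 fold change was -0.31 (SE 0.16, adjusted p = 0.121, edgeR) and -0.62 (SE 0.16, adjusted p = 0.00319).

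For the isoform pair COX7A1 and COX7A2, the former known from heart and skeletal muscle and the latter ubiquitous, both members had counts. COX7A1 was low, at 3.07, 4 and 4.86 CPM in Early CTL and 0.757, 1.99 and 1.82 in Late CTL, and at 4.21, 3.65 and 4.52 in Early ACT and 2.09, 1.96 and 2.38 in Late ACT. The groups did not overlap, and it fell by 1.31 (SE 0.37) and 0.93 (SE 0.35) on the log2 scale, a stimulated call lost in 7 of 19 alternatives. COX7A2 was at 32.9, 36.8 and 40.3 CPM in Early CTL and 30.3, 31.9 and 37 in Late CTL, overlapping, and passed in stimulated cells only by the threshold, at -0.59 (SE 0.16). COX7B was at -0.09 and -0.47 (SE 0.20 each) and did not pass. NDUFA4 was at 0.25 (SE 0.15) and 0.15 (SE 0.15) and did not pass. Its isoform NDUFA4L2, known to be induced by hypoxia, had a count of 0 in every library and was not tested.

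Complex V makes ATP with the energy of the proton gradient. Of the 11 nuclear members 2 fell in unstimulated cells and 1 in stimulated cells. These shares, 18.2% and 9.09%, are no higher than the 19.8% and 19.7% of all genes. In each comparison 10 of 11 had negative values, against 48.6% and 47.2% of all genes, and the medians were -0.35 and -0.23. ATP5F1B, the catalytic beta subunit, was the most highly counted nuclear member, at 726, 747 and 805 CPM in Early CTL and 722, 719 and 858 in Late CTL. Its groups overlapped, with log2 fold changes of 0.01 (SE 0.11) and -0.13 (SE 0.11). ATP5F1A, the alpha subunit, was at -0.15 (SE 0.12) and -0.23 (SE 0.12) and did not pass.

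ATP5F1C, the gamma subunit of the rotor (chromosome 9, 7745996 to 7760398), fell in unstimulated cells from 41.5, 37.3 and 41.1 CPM in Early CTL to 28, 26.2 and 26.6 in Late CTL, by 0.57 on the log2 scale (SE 0.15, adjusted p = 0.00288, edgeR). In stimulated cells it was at 23.8, 28.4 and 28.2 CPM early and 24.3, 27.9 and 23.1 late, so that Early CTL alone stood high. ATP5PD, a subunit of the peripheral stalk, was at 21.5, 19.9 and 22.2 CPM in Early CTL and 13.6, 13.1 and 13.1 in Late CTL, and fell by 0.68 (SE 0.18, adjusted p = 0.00339, edgeR). Its stimulated libraries were at 20.1, 15.6 and 14.4 CPM early and 14.5, 14.1 and 14.7 late, overlapping. ATP5ME, a membrane subunit, passed in stimulated cells at -0.61 (SE 0.24, adjusted p = 0.0431, edgeR), a call lost in 9 of 19 alternatives (adjusted p 0.0181 to 0.171). ATP5MJ, a small membrane subunit, was at -0.53 (SE 0.23) and -0.27 (SE 0.22), and ATP5MC1 and ATP5MC2, which encode the same c-ring protein, were at -0.38 and -0.32 and at -0.27 and -0.31. The inhibitor ATP5IF1 was at -0.35 and -0.37 (SE 0.29 each). None of these 4 passed. For the remaining nuclear members that did not pass, of any complex, the log2 fold changes ran from -0.27 (NDUFA10) to 0.17 (NDUFB4) in unstimulated and from -0.43 (NDUFA1) to 0.38 (NDUFV3) in stimulated cells.

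**Figure D3:**
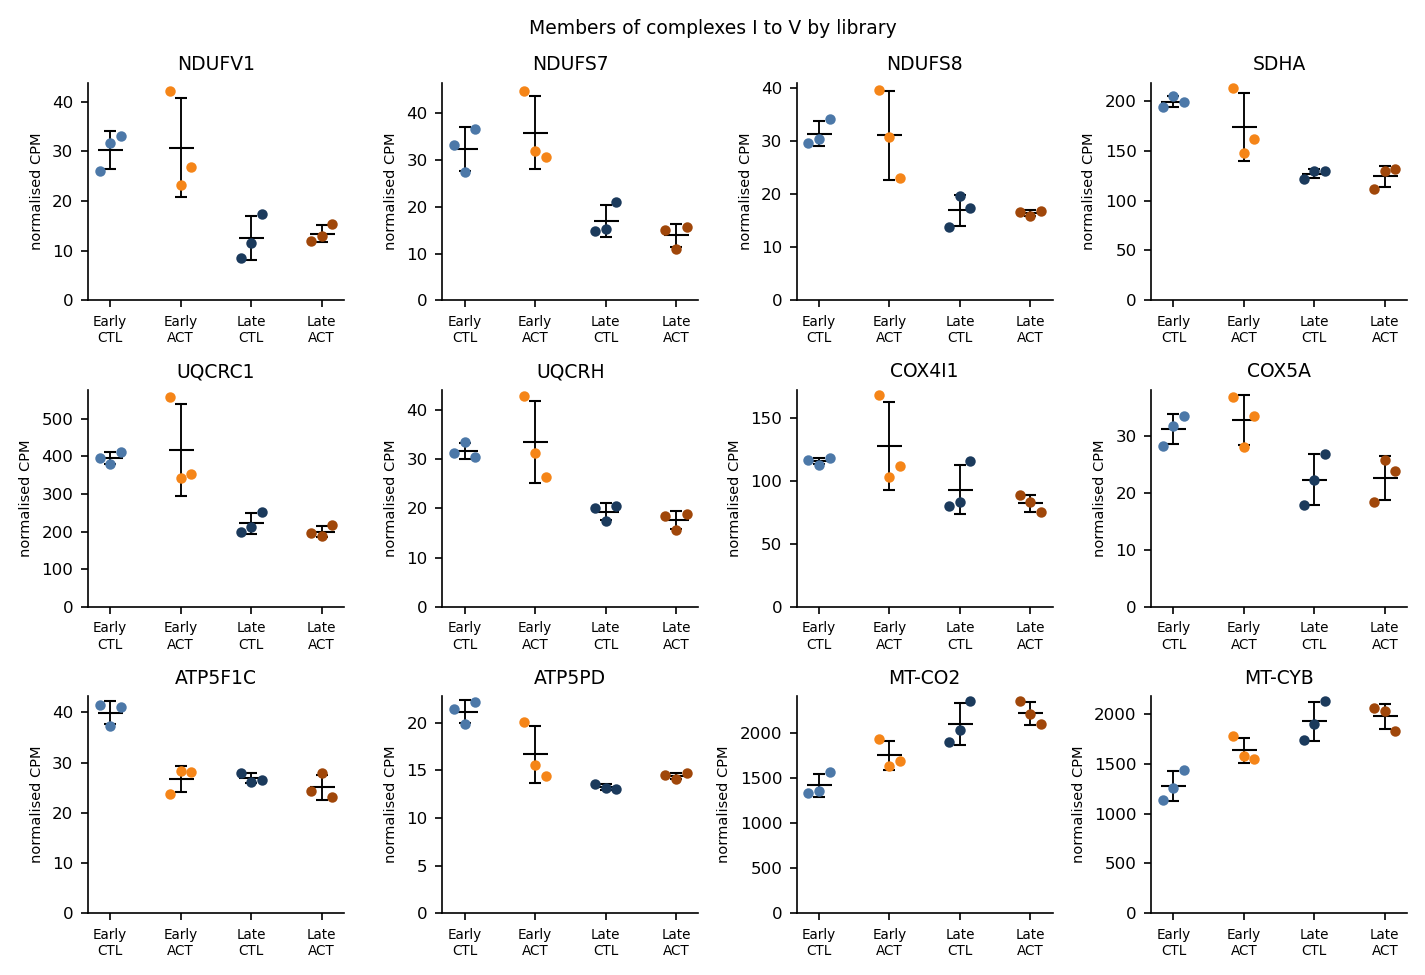
Normalised CPM of 12 members by group, with points for libraries and bars for the mean ± SD of 3 libraries; each axis starts at 0. NDUFV1, NDUFS7, NDUFS8, SDHA, UQCRC1, the row named UQCRH and COX5A have no late library as high as an early one of the same treatment, COX4I1 overlaps in unstimulated cells, and MT-CO2 and MT-CYB lie higher late.

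The authors' deposited tables of late against early list 13 of the nuclear members for unstimulated and 14 for stimulated cells, every one of them lower late, the row named UQCRH included. In the authors' deposited table UQCRC1 had a log2 fold change of -0.82 in unstimulated and -1.06 in stimulated cells, and NDUFV1 -1.25 and -1.17. A pair of further nuclear rows has no symbol but a description in the authors' deposited tables, and was therefore counted outside the members. The row described as cytochrome c oxidase subunit 6B1 was at 25.7, 22.3 and 28.8 CPM in Early CTL and 11.3, 10.9 and 17.5 in Late CTL. The row described as the O subunit of ATP synthase was at 70, 67 and 72.3 CPM in Early CTL and 41.9, 40.3 and 56.8 in Late CTL. The groups overlapped for neither row, and since the listing chose them, these values are a description.

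The mitochondrially encoded members were all higher late, as a description with no test. MT-CO2, the copper-bearing subunit of complex IV that takes electrons from cytochrome c, was at 1329, 1355 and 1564 CPM in Early CTL, 1932, 1631 and 1685 in Early ACT, 1898, 2034 and 2354 in Late CTL, and 2347, 2213 and 2093 in Late ACT. MT-CYB, cytochrome b of complex III, was at 1138, 1254 and 1437 CPM in Early CTL, 1779, 1578 and 1553 in Early ACT, 1743, 1901 and 2130 in Late CTL, and 2063, 2033 and 1833 in Late ACT. For both genes the late libraries lay above the early ones of the same treatment, and Early ACT lay between Early CTL and Late ACT.

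MT-CO3, a core subunit of complex IV, was at 590, 624 and 756 CPM in Early CTL and 864, 924 and 1049 in Late CTL. In stimulated cells it was at 924, 790 and 808 CPM early and 1011, 977 and 874 late, where the groups overlapped, the only one of the 8 to do so. MT-ND4, a proton-pumping subunit of complex I, was at 144, 130 and 168 CPM in Early CTL, 138, 185 and 182 in Early ACT, 202, 242 and 274 in Late CTL, and 261, 233 and 214 in Late ACT. The other proton pump with a symbol, MT-ND5, was at 153, 148 and 163 CPM in Early CTL and 224, 230 and 215 in Late CTL. MT-ATP6, the proton channel subunit of complex V, was at 30.7, 38.2 and 49.3 CPM in Early CTL, 61.4, 53.2 and 52.1 in Early ACT, 61.3, 66.3 and 71.6 in Late CTL, and 69.2, 65.8 and 63.8 in Late ACT.

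Over the 8, the median log2 fold change of late over early was 0.61 (0.53 to 0.93) in unstimulated and 0.37 (0.18 to 0.64) in stimulated cells. Values for unstimulated and stimulated cells were 0.93 and 0.64 for MT-ND4L, 0.75 and 0.26 for MT-ATP6, 0.70 and 0.48 for MT-ND4, 0.62 and 0.54 for MT-ND6, and 0.59 and 0.27 for MT-CYB. They were 0.57 and 0.34 for MT-CO2, 0.53 and 0.18 for MT-CO3, and 0.53 and 0.39 for MT-ND5. The standard errors lay between 0.11 and 0.25. Rows that the authors' deposited tables describe as NADH dehydrogenase subunits 2 and 3 and cytochrome c oxidase subunit I carry no symbol there, and their log2 fold changes were 0.73, 0.78 and 0.56 in unstimulated and 0.66, 0.64 and 0.63 in stimulated cells.

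Mitochondrial genes have no introns, so their levels can be set per kilobase of the annotated gene. In Early CTL the mean was 2070 ± 189 CPM per kilobase for MT-CO2 (mitochondrial genome, 7532 to 8215), 1119 ± 132 for MT-CYB (14741 to 15881), 838 ± 112 for MT-CO3 (9198 to 9981) and 107 ± 13.7 for MT-ND4 (10751 to 12128) (SD, n = 3). MT-ND5 (12328 to 14139) followed at 85.4 ± 4.06, MT-ND6 (14140 to 14667) at 76.2 ± 12.2, MT-ATP6 (8518 to 9198) at 57.8 ± 13.8 and MT-ND4L (10461 to 10757) at 17.5 ± 4.95. The Early CTL libraries of MT-ND5 and MT-ND6 overlapped, as did those of MT-ND6 and MT-ATP6. Among the 8, the order of the 4 highest was the same in all groups, with Late ACT at 3242 ± 186, 1732 ± 110, 1217 ± 91.3 and 171 ± 17. The annotated ends of MT-ND4L and MT-ND4, and of MT-ATP6 and MT-CO3, overlap, and MT-ND6 lies on the other strand, whose reads an unstranded kit does not separate. Nuclear copies of mitochondrial DNA and processed pseudogenes of nuclear subunits can share reads with the members, and how the counting treated such reads is not given in the sources used here.

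Stimulation moved few members at 4.5 months. Of the 48 nuclear members, 1 fell and none rose, where 2.66% of all genes fell and 4.57% rose. The median log2 fold change was 0.01, with 24 members above and 24 below 0. The member that fell was ATP5F1C, by 0.56 on the log2 scale (SE 0.14, adjusted p = 0.0136, edgeR), from the Early CTL and Early ACT levels given above, which did not overlap. That call was lost without Early CTL 1 and without Early CTL 3 (adjusted p 0.0018 to 0.0682 over all alternatives). The 8 complex IV members tested were all above 0, between 0.03 and 0.31, where 50.2% of all genes were below 0, and none passed. Only 1 of the 8 had every Early ACT library above every Early CTL one, as did 12.6% of all genes. Early ACT 1 was the highest library of its group for COX4I1, COX5A, COX7A2, COX7B, COX7C and NDUFA4, and not for COX6C and COX7A1. Without Early ACT 1 the median of all nuclear members was -0.11.

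All 8 mitochondrially encoded members were above 0 on early stimulation, with a median of 0.31 (0.20 to 0.48). MT-ATP6 passed, at 0.48 (SE 0.15, adjusted p = 0.0482, edgeR), and lost the call in 12 of 19 alternatives (adjusted p 0.0128 to 0.293). MT-CYB was at 0.36 (SE 0.11, adjusted p = 0.0571, edgeR) and MT-CO3 at 0.35 (SE 0.12, adjusted p = 0.0707, edgeR). These rows were listed for a difference between Early CTL and Late CTL, and Early CTL is also the reference here, so their values are not independent of that listing. DESeq2 passed 5 members, 4 of them mitochondrially encoded, where it passed 1001 of 10206 genes. Without Early ACT 1 edgeR passed 7 members, the 5 that rose all mitochondrially encoded, and the genes passed over the whole table went from 855 to 1554.

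At 19 months no member passed for stimulation, and none of all genes did (0.0%). The count at an unadjusted p under 0.05 was 527 genes over the whole table with edgeR and 0 among the members, and DESeq2 passed 14 genes and 0 members, though it gave an adjusted p to only 6 nuclear and 5 mitochondrially encoded members. The median was -0.07 for nuclear and 0.03 for mitochondrially encoded members, with ranges of -0.35 to 0.41 and -0.02 to 0.20. For the interaction, the late minus the early stimulation response, no member passed with edgeR, where 1.41% of all genes did. At an unadjusted p under 0.05 there were 1 nuclear and 1 mitochondrially encoded member, and DESeq2 passed none. All 8 mitochondrially encoded members had a negative interaction, with a median of -0.26, a value that contains the late against early differences for which they were listed. The median of the nuclear members was -0.05.

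**Figure D4:**
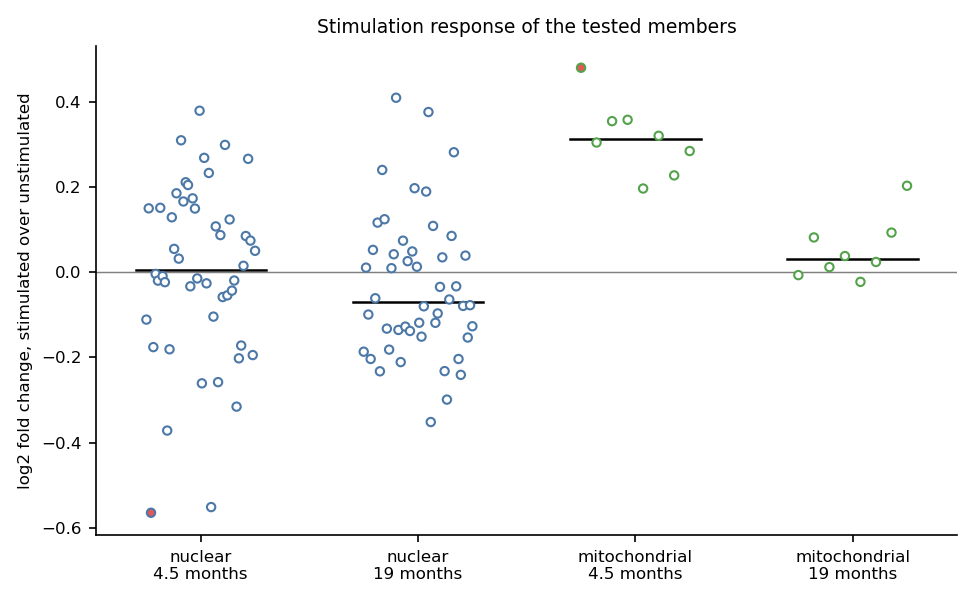
Log2 fold change of stimulated over unstimulated cells for the tested members (circles), nuclear encoded (blue edge) and mitochondrially encoded (green edge), at 4.5 and at 19 months. Red circles passed an adjusted p of 0.05 and lines are medians. The mitochondrially encoded members all lie above 0 at 4.5 months (0.20 to 0.48) and range from -0.02 to 0.20 at 19 months. These rows were named through lists of late against early differences, so their values here are not independent of that listing.

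The genes that build and supply the chain were compared between late and early libraries in the same way. Their counts stand beside the 20.9% of all genes that rose and 19.8% that fell in unstimulated cells, and the 19.1% and 19.7% in stimulated cells, and nothing particular to these lists is read from them. Of 16 complex I assembly factors tested, 2 rose and none fell in unstimulated cells, and 4 rose and 1 fell in stimulated cells. NDUFAF4 rose by 1.24 (SE 0.32) and 1.37 (SE 0.32) on the log2 scale, from means of 2.53 and 2.89 CPM early to 6.17 and 7.34 late. NDUFAF1 rose by 0.81 (SE 0.32) and 1.25 (SE 0.32), and NDUFAF6 rose in stimulated cells by 1.52 (SE 0.51). For complex IV, SURF1 fell by 0.56 and 0.78 (SE 0.20 each), FASTKD5 was at 0.27 and rose in stimulated cells by 0.31 (SE 0.12 each), and COX20, which helps to mature the MT-CO2 protein, was at 0.56 (SE 0.30) and rose in stimulated cells by 1.46 (SE 0.30). Of 14 tested genes listed for complex IV assembly 1 fell and none rose unstimulated, and 2 rose and 1 fell stimulated. FASTKD5 was counted there by the grouping chosen here, and not as an established assembly factor. None of the 4 tested complex III factors passed (medians -0.27 and -0.29), and ATPAF2, a complex V factor, was at -0.10 (SE 0.16) and fell in stimulated cells by 0.70 (SE 0.16). SDHAF4, a complex II factor, fell in stimulated cells by 0.64 (SE 0.24).

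Of 19 tested genes that transcribe, process or stabilise mitochondrial RNA, 6 rose and 1 fell in unstimulated cells, and 7 rose and none fell in stimulated cells (medians 0.05 and 0.38, beside 0.02 and 0.05 for all genes). LRPPRC, which stabilises mitochondrial mRNA, rose by 0.87 (SE 0.14, adjusted p = 2.74e-05, edgeR) and 1.06 (SE 0.14, adjusted p = 2.37e-06), from means of 38.5 and 34.8 CPM early to 70.6 and 73.4 late. The mitochondrial poly(A) polymerase MTPAP rose by 0.82 and 1.13 (SE 0.18 each), and FASTKD2 by 0.74 and 1.09 (SE 0.17 each). TFAM packages mitochondrial DNA and starts its transcription. Its log2 fold change was 0.32 (SE 0.30) in unstimulated cells, and it rose by 1.73 (SE 0.30) in stimulated cells, from a mean of 2.45 CPM in Early ACT to 8.38 in Late ACT. Among 12 electron carriers and ubiquinone synthesis genes, 2 rose and 2 fell unstimulated, and 1 rose and 2 fell stimulated. CYC1 fell by 0.44 and 0.61 (SE 0.12 each), from means of 124 and 124 CPM early to 91.6 and 81.2 late. COQ5, a methyltransferase of ubiquinone synthesis, rose by 1.10 and 1.21 (SE 0.30 each), and COQ8A was at -0.52 (SE 0.34) and fell in stimulated cells by 1.44 (SE 0.35).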

How the data were processed

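The authors deposited a table of raw gene counts for 12 libraries, whole numbers with no scaling, and a pair of tables of their own comparison of late with early libraries. In those the authors give log2 fold changes with standard errors, a test score that is the fold change over its standard error, and p-values with adjusted values, listing only genes with an adjusted p under 0.05. The tool behind them is not stated. Per the submitters' processing notes the build was Mmul_8.0.1 and bcl2fastq was used, while aligner and counter: not given in the sources used here. Per the labels, cDNA was made with SMART-Seq v4, whose reads do not keep the strand, and libraries with Nextera XT.

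Row identifiers were named from the row name, a macaque name table or, failing both, the authors' tables. All 12 libraries, 3 in each of 4 groups, entered a single edgeR 4.0.16 fit (R 4.3.3; TMM factors, filterByExpr by group, robust quasi-likelihood F test) with a coefficient per group. Of 57 members 56 were tested among 11826 genes, with Benjamini-Hochberg adjustment and a threshold of 0.05. Standard errors were derived from each log2 fold change and its F statistic. CPM values include the TMM factors. The pipeline was tested on simulated data. Precision is limited by 3 libraries a group and by totals from 3910680 to 12972505 counts, and counting error covers only part of the spread, as reads carry no molecular identifiers.

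Named members were all mitochondrially encoded ones, in each complex the up to 4 nuclear members with the smallest p in each late against early comparison, up to 2 that passed for each stimulation comparison, any that passed the interaction, and isoform pairs. From each pathway list up to 3 genes with the smallest p in either late against early comparison were named, with LRPPRC, TFAM, PPARGC1B, UCP2 and C15orf48 (CYCS and ACOD1, also in the rule, were not analysed here). One member that the rule names is not reported here singly, though counts and medians include it. Others (such as NDUFS1, NDUFS3, NDUFA5, NDUFA6, NDUFB2, NDUFB8, NDUFB9 and ATP5F1B) were added after their values were seen. The members, lists and tests were chosen with earlier results of these data known. The place of NDUFA4 and the expression classes were chosen after the files were seen. No pairing by replicate number was seen, though 3 libraries a group cannot exclude one. Correlations of same-numbered libraries' deviations were between -0.0442 and 0.0305 within a time and between -0.0855 and 0.0968 across times. Alternatives were RLE and upper-quartile factors, no low-count filter, DESeq2 1.42.0, only the compared groups, a replicate block, totals without mitochondrially encoded genes, names without the authors' tables, leaving out the row named UQCRH (whose description in the authors' tables names another gene), and leaving out each library.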

Additional observations from a re-analysis of the deposited data

How the results depend on the processing

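Over all alternatives 12 to 20 nuclear members fell in unstimulated and 14 to 20 in stimulated cells between early and late, and none rose. Of 416 recomputed counts and medians, 377 kept their size under a wide rule. A count could change by a set factor, and a median by less than the spread between libraries. For late against early in unstimulated cells, 25 members passing, mitochondrially encoded ones included, became 20 with upper-quartile factors and were taken as kept. Single members were recomputed only for the comparisons in which their fold change is printed. For late stimulation the genes called over the whole table numbered 2 with upper-quartile factors, 5 without the filter, 14 with DESeq2 and 10 with only the compared groups. Members passing for early stimulation were 1 without the filter, 5 with DESeq2, 1 with only the compared groups and 1 with names not taken from the authors' tables. The compared groups alone gave 503 genes for early stimulation, and DESeq2 305 genes for the interaction. The mitochondrially encoded median for late over early in stimulated cells was 0.47 with upper-quartile factors and 0.48 with the 5 rows known only by description, an alternative chosen after seeing the data. With upper-quartile factors COX7B turned to 0.0332 in unstimulated and UQCRB to 0.0448 in stimulated cells. The cause of these changes was not tested.

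With the replicate block, 16 and 18 nuclear members fell for late against early, where 4423 and 4191 of all genes passed, and there were 1 member for early stimulation, 1 gene of the whole table for late stimulation and 111 for the interaction. No pairing by number was seen, as 4 of 12 libraries correlated best with their own number, but 3 libraries a group cannot exclude one.

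Leaving out each library in turn left 12 to 20 nuclear members lower late in unstimulated cells, where 4254 to 6148 of all genes passed, and 14 to 20 in stimulated cells, where 3689 to 4908 did. With the mitochondrially encoded members, which were listed for this difference and carry no test, the counts were 20 to 28 and 15 to 25, the lowest stimulated one without Late ACT 1, where 3689 of all genes passed. For early stimulation it gave 0 to 7 members and 464 to 1554 genes, the highest without Early ACT 1, for late stimulation 0 to 29 genes, and for the interaction 95 to 546. The nuclear median unstimulated ranged from -0.52 without Late CTL 3 to -0.29, and on early stimulation from -0.11 without Early ACT 1 to 0.10. Members that did not pass and changed sign were COX7B (-0.26 to 0.0443) and SDHC (-0.56 to 0.0406) in unstimulated cells, and SDHD (-0.0119 to 0.11) and UQCRB (-0.24 to 0.12) in stimulated cells. Where an arm keeps 2 libraries its spread is pooled with the other groups. Low members such as COX7A1, NDUFA5 and NDUFB5 have the widest standard errors, so small differences were not detectable at this depth.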

Other observations

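Of 18 TCA cycle genes tested, 2 rose and 5 fell late in unstimulated cells, and 2 rose and 7 fell in stimulated cells. Over all genes 20.9% rose and 19.8% fell unstimulated, and 19.1% and 19.7% stimulated, the background for every list here. MDH2, the mitochondrial malate dehydrogenase, fell by 1.07 (SE 0.18) and 1.23 (SE 0.17) on the log2 scale, from means of 49.3 and 55.8 CPM early to 23.2 and 23.5 late. FH, the fumarase of the preceding step, rose by 0.78 and 0.43 (SE 0.12 each). IDH3G fell by 0.56 and 0.84 (SE 0.17 each).

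Of 13 regulators of mitochondrial biogenesis, 5 rose and 2 fell unstimulated, and 2 rose and 3 fell stimulated. GABPB1, a subunit of the nuclear respiratory factor 2, rose by 0.79 (SE 0.13) and 0.37 (SE 0.12). PPARGC1A, a coactivator of these genes, had 0 or 1 counts in each early library, 4, 5 and 7 in Late CTL and 12, 11 and 20 in Late ACT. It is among the 13 tested, and the low-count filter could keep it only through Late ACT, where it was highest. Its late values are therefore a description, and the counts of the 13 do not set it apart. PPARGC1B was at 1.73 (SE 0.70) and 1.65 (SE 0.69) and did not pass. MYC rose late in unstimulated cells by 0.59 (SE 0.12) and was at -0.02 (SE 0.12) in stimulated cells. Among 5 tested uncoupling and inflammatory partners, UCP2 fell by 0.45 and 0.47 (SE 0.17 each). C15orf48, whose protein can replace NDUFA4 in complex IV, rose on early stimulation by 0.59 (SE 0.12, adjusted p = 0.00166, edgeR) and fell late in stimulated cells by 0.39 (SE 0.12).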
